A study of Homo sapiens with 6 samples.

Results

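The comparison concerns HCT116, an established human colorectal carcinoma line, with 2 different hairpins against YAP, named shYAP1 and shYAP3 in the labels. Both lines carry a YAP knockdown, and each gave 1 library from control medium and 1 after 6 h without glucose, so 4 of the 6 libraries of the study were compared. The other 2, from wild-type HCT116 cells labelled NC in the same media, serve as reference values. The labels state no clone, vector, selection or number of cultures for either line. Genes that reached a deposited value of 1 in 2 or more of the 4 hairpin libraries were compared, which left 12153 of the 14987 listed genes. Just inside that limit was UTS2, with 1.01 and 1.22 as its highest values, and just outside it was IDNK, with 1.248 and 0.9997. Every listed gene was above 0 in the NC control library, while 535 to 942 genes were at 0 in each hairpin library. Genes without reads in that NC library may therefore be missing from the list, also where a hairpin line expressed them.

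A short hairpin RNA is processed by Dicer and loaded into an Argonaute complex, which cleaves transcripts that match the guide strand. The same guide can also act as a microRNA on other transcripts that match its seed, and double-stranded RNA can be seen by sensors that turn on interferon-stimulated genes. Hairpins of different sequence against 1 transcript therefore share their target and need not share anything else. YAP itself is the coactivator that the Hippo kinases hold in the cytoplasm and that binds DNA through the TEAD factors. In colorectal cells it is known for driving growth, matrix and survival genes.

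YAP1 (ENSG00000137693), the transcript both hairpins target, differed between the lines by no more than counting error. Its value was 188 (NC), 35.7 (shYAP1) and 38.2 (shYAP3) with glucose, and 154, 20.3 and 18.2 without it. The ratio of shYAP3 to shYAP1 was 1.07 in control medium (95% counting interval 0.972 to 1.18) and 0.897 after deprivation (0.761 to 1.06). Over both media the log2 difference was −0.03 (SE 0.25, limma adjusted p = 0.99). All 4 hairpin libraries lay below both NC libraries, and neither line was lower in both media. These and all later counting intervals are exact binomial intervals of a ratio of recovered reads and cover counting error only.

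The 4 hairpin libraries held 16912634 to 22161075 listed reads, and the shYAP3 deprived library was the shallowest. A single read was worth 0.0406 to 0.0693 on the deposited scale, and a count of 0 allows up to 3 reads, or 0.122 to 0.208. Epithelial markers were plentiful, 9 of 10 having a row and summing to 3294 to 6319 per library, while CEACAM5 was not analysed here. Markers of fibroblasts (4 of 8 with a row), leukocytes (5 of 7) and endothelium (3 of 5) summed to at most 10.5, 38.1 and 7.96. With 1 library per hairpin and medium there are no replicates. A p-value therefore sets the mean difference over the 2 media against a spread taken almost wholly from genes of like level. A gene's own agreement between media hardly enters it, so a pass does not show repetition across media. The SE was 0.245 for NEDD9 and 0.248 for FOSB, whose differences changed between media by 0.09 and −1.27 (log2). Line, culture and library differences cannot be told apart. In bulk RNA, fewer cells of a kind and less RNA per cell cannot be told apart either.

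Over both media 13 genes differed between the lines in limma, 6 higher and 7 lower in shYAP3 cells. These are 0.0494% and 0.0576% of the genes tested. The higher genes were NEDD9, AP000275.65, POC1B-GALNT4, PDCD4, SAMD9 and RPL17-C18orf32, and the lower ones SLX1B, MSH5-SAPCD1, KRT6A, PRF1, SUSD2, FOSB and RNF43. Without an adjustment for many tests, 306 genes (2.52%) were higher and 377 (3.10%) lower at a p below 0.05. The count of 13 became 4 when libraries were scaled to their listed reads, which moved the median difference of all genes after deprivation by −0.12 (log2), and 1 with DESeq2 on recovered reads. In a limma fit of all 6 libraries, NC included, it was 0. The count of that fit depended strongly on which library was left out.

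**Figure D1:**
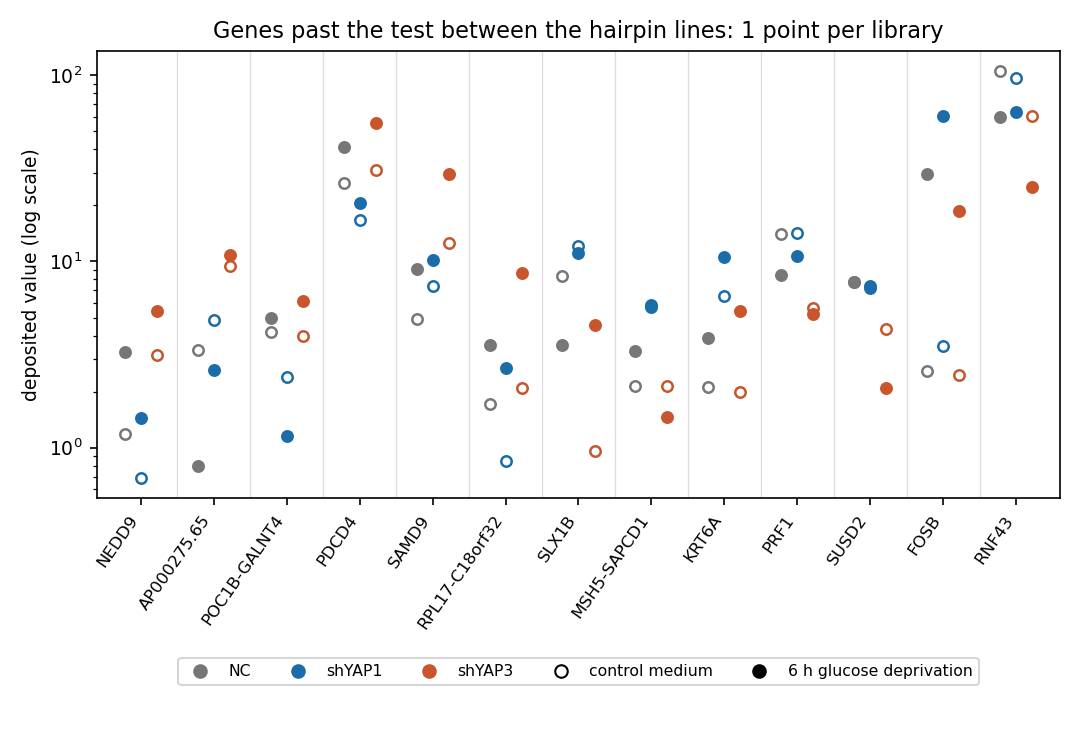
Deposited values (log axis) of the 13 genes past the test, 1 point per library, with NC in grey, shYAP1 in blue and shYAP3 in orange, and open points for control medium and filled points for deprivation. Within each medium every shYAP3 point lies on the same side of its shYAP1 point, above it for the 6 genes on the left and below it for the 7 on the right.

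Among the higher genes, PDCD4 and NEDD9 encode well-known proteins of tumour biology. Here and later, 3 values are in the order NC, shYAP1, shYAP3, and a pair in the order shYAP1, shYAP3, with control medium first and deprivation after "then", while 2 values joined to 1 line or set with "against" are that line's control and deprived libraries. PDCD4 (ENSG00000150593), an inhibitor of the translation helicase eIF4A, stood at 26.3 (NC), 16.7 (shYAP1) and 30.9 (shYAP3) in control medium, then at 41.0, 20.6 and 55.4 after deprivation. The shYAP3 value was thus the highest and the shYAP1 value the lowest in each medium. The fitted log2 difference was 1.12 (SE 0.25, limma adjusted p = 0.011), or 2.17-fold. NEDD9 (ENSG00000111859), a scaffold of focal adhesion and Src signalling, stood at 1.19, 0.690 and 3.14 in control medium, then at 3.25, 1.45 and 5.41 after deprivation, in the same order of lines. Its shYAP3 to shYAP1 ratio was 4.55 (95% counting interval 2.64 to 8.25) and 3.72 (2.35 to 6.10), from 17 to 78 reads per library, and its log2 difference 1.34 (SE 0.25, limma adjusted p = 0.00029).

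SAMD9 (ENSG00000205413), an interferon-inducible antiviral factor, stood at 4.93 (NC), 7.38 (shYAP1) and 12.6 (shYAP3) in control medium, then at 9.15, 10.2 and 29.3. NC was here below both hairpin lines, and the log2 difference between the lines was 1.07 (SE 0.25, limma adjusted p = 0.022). AP000275.65, listed under a clone-based name, stood at 3.34, 4.83 and 9.45, then at 0.798, 2.61 and 10.8, again lowest in NC (log2 1.28, limma adjusted p = 0.00083). Whether it shares reads with neighbouring genes was not tested.

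The remaining pair of higher genes are read-through transcripts, which share exons with their neighbours, so that the authors' counting could split their reads. POC1B-GALNT4 stood at 2.39 and 1.16 in shYAP1 and 3.999 and 6.10 in shYAP3 cells (limma adjusted p = 0.0093), in control medium first. Summed with POC1B and GALNT4 the difference was 0.08 and 0.48 instead of 0.56 and 1.72. RPL17-C18orf32 stood at 0.852 and 2.67 against 2.09 and 8.66 (limma adjusted p = 0.022), and summed with RPL17 and C18orf32 the difference was −0.34 and 0.77. Both are therefore uncertain as differences of the locus.

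SLX1B (ENSG00000181625), the gene of a structure-specific nuclease subunit, had the largest fitted difference of the 13. It stood at 8.40 (NC), 12.2 (shYAP1) and 0.954 (shYAP3), and after deprivation at 3.57, 11.1 and 4.57 (log2 −1.94, SE 0.25, limma adjusted p = 7.5e-11). SLX1A, its near-identical copy, stood at 22.6, 18.9 and 25.1, then at 28.6, 29.2 and 22.6. The sum of both copies was 31.0 (NC), 31.0 (shYAP1) and 26.1 (shYAP3), then 32.2, 40.3 and 27.2, so that the difference of the sum was −0.24 and −0.55 instead of −2.75 and −1.12. MSH5-SAPCD1, a read-through transcript, was at 5.72 and 5.81 in shYAP1 and 2.14 and 1.46 in shYAP3 cells (limma adjusted p = 0.00075), while its sum with MSH5 and SAPCD1 differed by 0.02 and −0.35. For both, the reads may be divided differently between copies, and this was not tested.

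RNF43 and FOSB are a membrane ubiquitin ligase that removes Wnt receptors and a subunit of the AP-1 transcription factor. RNF43 (ENSG00000108375) stood at 105 (NC), 96.3 (shYAP1) and 60.1 (shYAP3), then at 59.5, 63.5 and 25.02, with shYAP3 alone low in each medium (log2 −0.99, SE 0.24, limma adjusted p = 0.047). HCT116 is known to carry truncating changes in this gene, and no allele was examined here. FOSB (ENSG00000125740) stood at 2.595, 3.53 and 2.45 in control medium, then at 29.6, 60.8 and 18.6 after deprivation, so that most of its difference of −1.02 (SE 0.25, limma adjusted p = 0.038) comes from the deprived libraries. RNF43 was the last gene inside the threshold. EGR3 and IGFBP3 were the first outside it, both at a limma adjusted p of 0.0505.

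KRT6A, PRF1 and SUSD2 complete the lower genes. KRT6A (ENSG00000205420), a keratin of stressed and wounded epithelium, stood at 2.11 (NC), 6.53 (shYAP1) and 2.00 (shYAP3), then at 3.88, 10.6 and 5.41 after deprivation, with shYAP1 alone high (log2 −1.09, limma adjusted p = 0.018). PRF1 (ENSG00000180644), which encodes perforin and is best known from cytotoxic lymphocytes, stood at 14.1, 14.3 and 5.63, then at 8.41, 10.7 and 5.20 (log2 −1.06, limma adjusted p = 0.025). Of 7 leukocyte markers, PTPRC and CD3E were not analysed here, CD68 stood at 8.97 and 15.9 in shYAP1 and 4.998 and 9.22 in shYAP3 cells, and CORO1A at 7.14 and 12.7 against 11.2 and 18.3. The marker sums were 20.2 (shYAP1) and 19.8 (shYAP3) in control medium, then 36.5 and 38.1, and their part in the PRF1 difference was not tested. SUSD2 (ENSG00000099994), a membrane protein with a sushi domain, stood at 7.79, 7.38 and 4.36, then at 7.77, 7.202 and 2.08 (log2 −1.03, limma adjusted p = 0.036).

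The NC value lay between the 2 hairpin lines for 8 of the 13 genes in control medium and for 8 after deprivation. Over all genes tested it lay between them for 28.2% and 31.9%. The 13 genes were selected for a wide gap between the hairpin lines, and a wide gap encloses the NC value more easily than a narrow one. Their counts therefore cannot be set against the shares of all genes, and no conclusion is drawn from them. In KRT6A, NC and shYAP3 cells were close and shYAP1 cells apart in control medium. In PRF1, SUSD2 and RNF43 NC and shYAP1 cells were close and shYAP3 cells apart.

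Since only 3 of the higher genes reached a value of 5 in 2 or more libraries, 12 further genes with a positive difference in both media were looked at. None of them passed in the fit above. TAGLN, an actin-binding protein of contractile cells, stood at 13.4 (NC), 3.65 (shYAP1) and 8.59 (shYAP3), then at 46.3, 15.9 and 25.4 after deprivation (limma adjusted p = 0.20), with NC the highest. IGFBP2, a binding protein of insulin-like growth factors, stood at 94.8, 53.8 and 80.1, then at 86.7, 54.9 and 95.6 (limma adjusted p = 0.58), with shYAP1 the lowest in each medium. MSRB3, a methionine sulfoxide reductase, stood at 9.46, 4.18 and 7.13, then at 12.5, 4.47 and 8.11 (limma adjusted p = 0.56). MPC1, a subunit of the mitochondrial pyruvate carrier, stood at 6.99, 5.07 and 9.18, then at 9.47, 7.49 and 14.1 (limma adjusted p = 0.33). ANKRD29, CCDC53, ZNF25, ZNF555, EVA1B, PLCB1, MAMDC2 and SAMD12 had differences of 0.50 to 0.78 in control medium and of 0.52 to 1.11 after deprivation.

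The size of the difference depended on the medium. In control medium the differences of all genes had an SD of 0.199 (log2), and 3 genes (0.0247%) were at least 2-fold higher and 10 (0.0823%) at least 2-fold lower in shYAP3 cells. After deprivation the SD was 0.458, and 97 genes (0.798%) were at least 2-fold higher and 115 (0.946%) at least 2-fold lower. NEDD9, SLX1B and MSH5-SAPCD1 were past 2-fold in the same direction in both media. For 150 genes, 68 higher and 82 lower, the difference was past 2-fold after deprivation and under 0.322 on the log2 scale in control medium, and no gene showed the opposite. Scaled to listed reads, the higher and lower counts were 9 and 8 with glucose, then 38 and 245 without it, while quantile normalization gave 6 and 11, then 94 and 78. None of these within-medium values has a test, since each rests on 1 library per line.

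Across genes the differences in the 2 media were nearly unrelated, with Pearson's r 0.101 and Spearman's rho 0.0558 over 12153 genes, which are not independent replicates. The sign was the same in both media for 6269 genes (51.6%). Above 0, that is higher in shYAP3 cells, were 41.5% of genes in control medium and 48.8% after deprivation. The NC libraries place the wider spread in 1 library. The SD of the difference from NC was 0.2505 for shYAP1 and 0.238 for shYAP3 cells in control medium, and 0.283 for shYAP1 but 0.539 for shYAP3 cells after deprivation.

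**Figure D2:**
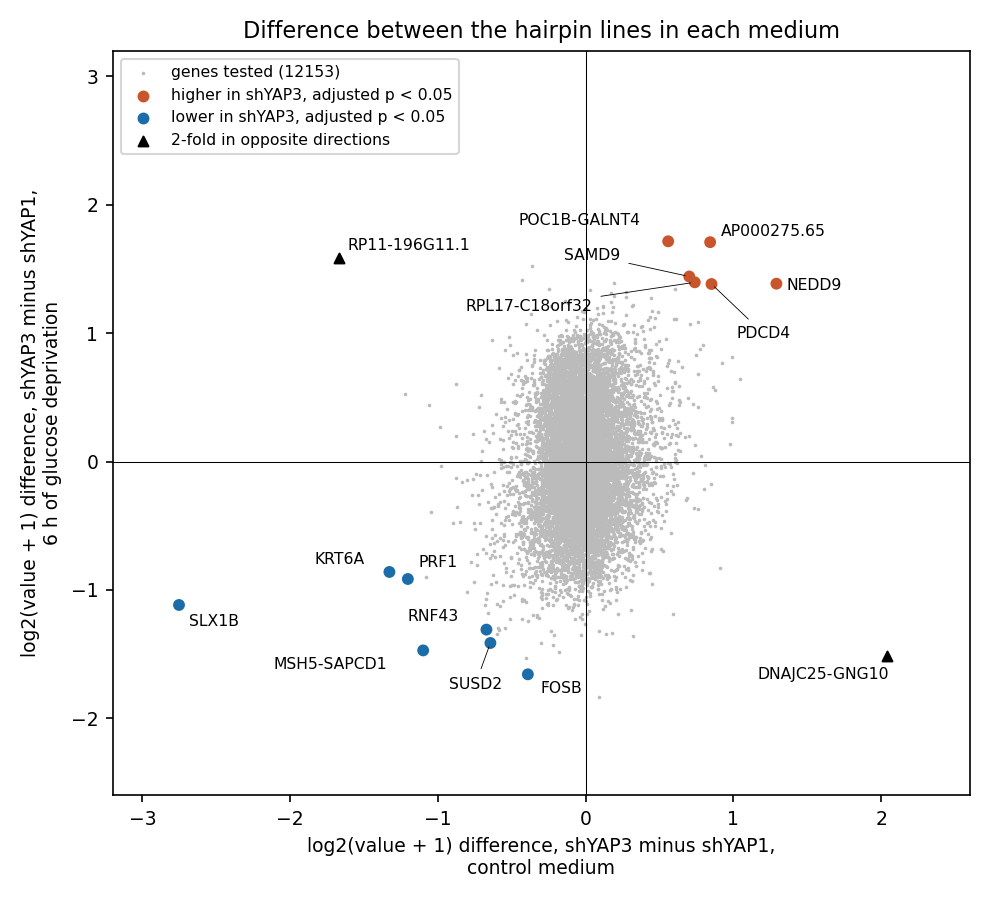
Each point is a gene, with the log2(value + 1) difference shYAP3 minus shYAP1 in control medium on the x axis and after deprivation on the y axis, the 13 genes past the test in colour and the 2 genes past 2-fold in opposite directions as triangles. The cloud is tall and narrow, with an SD of 0.458 along the y axis and 0.199 along the x axis.

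The difference after deprivation followed transcript composition. Among the 1201 genes of lowest GC content (30.2% to 38.5%) its median was 0.48, and among the 1201 of highest (61.8% to 73.9%) it was −0.28, against −0.05 and −0.01 in control medium. Among the shortest transcripts (207 to 1661 bases) the median was 0.29 after deprivation and among the longest −0.22. Against NC, shYAP3 deprived cells had medians of 0.47 and −0.19 at lowest and highest GC content, and shYAP1 deprived cells −0.00 and 0.11. In control medium both lines also had higher medians against NC at lowest than at highest GC content, 0.26 and −0.12 in shYAP1 and 0.20 and −0.14 in shYAP3 cells. When smooth trends on length and GC content were removed within each library, the SD after deprivation was 0.344 and r across media 0.233, and 40 genes (0.329%) were higher and 95 (0.782%) lower in limma, all 13 genes above among them. Whether composition or regulation sets these trends was not tested.

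**Figure D3:**
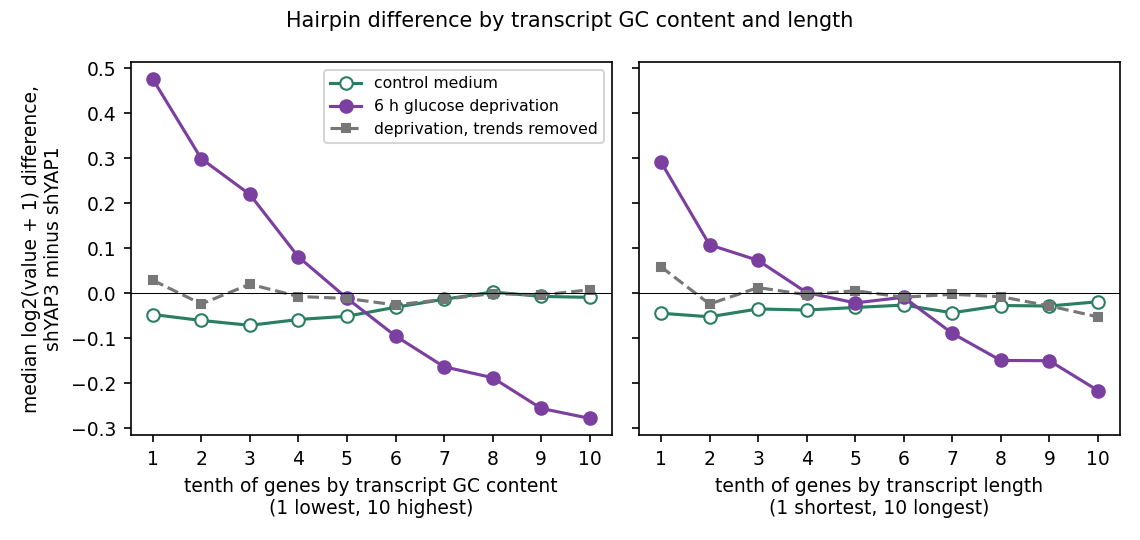
Median log2(value + 1) difference shYAP3 minus shYAP1 (y axis) for 10 groups of genes by GC content (left) and transcript length (right), in control medium (open), after deprivation (filled) and after deprivation with both trends removed (squares). After deprivation the medians go from 0.48 to −0.28 with GC content, while in control medium they stay between −0.07 and 0.00.

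Immediate early genes, the transcription factors and phosphatases that cells make within minutes of a signal, had the lowest median after deprivation of the lists with at least 10 genes tested. Of 32 tested, 0 were higher and 1, FOSB, lower past the adjusted threshold, and 15 (against 3.10% of all genes) were lower at an unadjusted p below 0.05. Their median difference was −0.19 in control medium and −0.68 after deprivation, against −0.03 and −0.01 over all genes. All 32 were below 0 after deprivation, against 6225 of the 12153 genes tested. With length and GC trends removed the median was −0.53 and 7 passed in limma, namely FOS, FOSB, FOSL1, EGR1, EGR2, EGR3 and ZFP36.

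FOS, the partner of JUN in AP-1, stood at 3.74 (NC), 3.98 (shYAP1) and 2.95 (shYAP3) in control medium, then at 110, 179 and 76.7 after deprivation. EGR1, a zinc finger factor, stood at 36.0, 29.7 and 19.99, then at 418, 545 and 222 (limma adjusted p = 0.095). EGR2 stood at 0.264, 0.690 and 0.454, then at 26.1, 49.6 and 18.9, and EGR3 at 2.55, 3.33 and 2.59, then at 21.9, 52.0 and 15.04. In all 4 the order after deprivation was shYAP1, NC, shYAP3, and all were far above control medium in each line. The shYAP1 to shYAP3 ratio after deprivation was 2.33 for FOS, 2.46 for EGR1, 2.63 for EGR2 and 3.46 for EGR3, while JUN stood at 426 against 279 and ATF3 at 156 against 147. The 32 genes held 0.205% (shYAP1) and 0.183% (shYAP3) of the reads in control medium, but 0.649% and 0.391% after deprivation, when NC was at 0.608%.

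Many immediate early promoters hold CArG boxes, the sites known for the serum response factor. The promoter of EGR1 is shown as 1 of 2 promoters of these genes in which the box was found, in the last 150 bases before the RefSeq start (GRCh38.p14, chr5:138465329-138465478, plus strand), with 2 matches in capitals that begin 105 and 83 bases before the start.
EGR1: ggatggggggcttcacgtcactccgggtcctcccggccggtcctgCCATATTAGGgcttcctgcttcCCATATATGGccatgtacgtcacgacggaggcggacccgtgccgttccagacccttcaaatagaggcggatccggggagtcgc
A search on both strands over the 250 bases before the start found the box in 2 of the 23 immediate early genes with a RefSeq promoter, EGR1 and SRF, and in 1.14% of 27305 promoters. A match is a run of letters and not a measured site, and boxes farther upstream were outside this window.

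Interferon-stimulated genes and RNA sensors, the genes that long double-stranded RNA can turn on, had a median difference of 0.13 in control medium and 0.08 after deprivation. Of 31 tested, 1, SAMD9, was higher past the adjusted threshold and 0 were lower, and 6 (against 2.52% of all genes) were higher at an unadjusted p below 0.05. Their median after deprivation was −0.05 when libraries were scaled to listed reads and 0.01 with trends removed. IFIT1, which binds foreign RNA ends, stood at 2.02 (NC), 1.87 (shYAP1) and 3.36 (shYAP3), then at 1.92, 1.34 and 4.92 after deprivation (log2 0.97, SE 0.25, limma adjusted p = 0.053). IFIT2, of the same family, stood at 1.501 and 1.16 in shYAP1 and 2.36 and 2.77 in shYAP3 cells, and PARP9, an ADP-ribosyltransferase relative, at 9.13 and 4.88 against 11.9 and 10.7. Their shYAP3 values were the higher ones in each medium, and none of the 3 passed. With trends removed IFIT1, PARP9 and SAMD9 passed.

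The promoters of IFIT1 and SAMD9 are shown because these genes had the smallest p of the list. Each stretch is the last 150 bases before the RefSeq start in GRCh38.p14, at chr10:89392473-89392622 on the plus strand for IFIT1 and chr7:93117980-93118129 on the minus strand for SAMD9. Capitals mark the core of the interferon response element, GAAANNGAAA, found on either strand.
IFIT1: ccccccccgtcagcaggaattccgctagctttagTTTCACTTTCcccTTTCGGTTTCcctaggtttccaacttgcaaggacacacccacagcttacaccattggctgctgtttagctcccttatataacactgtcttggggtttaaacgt
SAMD9: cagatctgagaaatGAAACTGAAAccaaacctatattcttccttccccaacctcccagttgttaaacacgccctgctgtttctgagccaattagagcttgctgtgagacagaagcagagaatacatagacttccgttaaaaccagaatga
IFIT1 holds 2 such cores, which begin 116 and 103 bases before the start, and SAMD9 holds 1, at 136 bases. The core was in 11 of the 23 genes of this list with a RefSeq promoter and in 3.07% of 27305 promoters, over the 250 bases before the start. The CArG box was in 1 of these 23.

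Genes of the small RNA pathway that hairpins use did not pass in either direction. Of 15 tested the median difference was 0.02 in control medium and −0.39 after deprivation (−0.16 with trends removed). AGO1 and AGO2, which encode Argonaute proteins, stood at 109 and 69.5 (shYAP1) and 88.3 and 65.6 (shYAP3) in control medium, then at 68.1 and 74.5 against 36.6 and 45.7.

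The lists of the ribosome and the respiratory chain were among those with the highest medians after deprivation. By the longest transcript of each gene, the median length was 1841.5 bases for cytosolic ribosomal proteins and 1582 for nuclear oxidative phosphorylation genes. Over all genes it was 3731. The 79 cytosolic ribosomal protein genes had a median difference of −0.16 in control medium and 0.54 after deprivation (0.26 with trends removed), with 75 of 79 above 0 against 48.8% of all genes. RPS7 stood at 657 (NC), 717 (shYAP1) and 697 (shYAP3), then at 890, 1242 and 2154 after deprivation. Its longest transcript, which set its length for the trends, has 5429 bases. The deprived difference of RPS7 was 0.79, and 0.80 with trends removed. The list held 8.38% (shYAP1) and 8.08% (shYAP3) of the reads in control medium, 11.95% and 15.3% after deprivation, with NC at 9.79%. Of the 77 nuclear genes of oxidative phosphorylation, 71 were above 0 after deprivation (median 0.51, and 0.25 with trends removed), as NDUFA4, at 82.9 and 87.8 in control medium and 126 and 258 after it.

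Mitochondrial ribosomal proteins (74 tested, median 0.41) and the proteasome (31 tested, median 0.43) followed, at 0.12 and 0.13 with trends removed, and no member of these 4 lists passed in limma in either direction. Medians of these 4 lists after deprivation were positive in each of the 3 scalings, from 0.22 to 0.54. The 13 genes of the mitochondrial genome, whose transcripts are also short, had a median of −0.14 in control medium and −0.26 after deprivation, and of −0.74 with trends removed. MT-ND1 stood at 923 and 878, then at 982 and 627. They held 5.76% (shYAP1) and 5.47% (shYAP3) of the reads in control medium, then 5.88% and 4.27%.

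**Figure D4:**
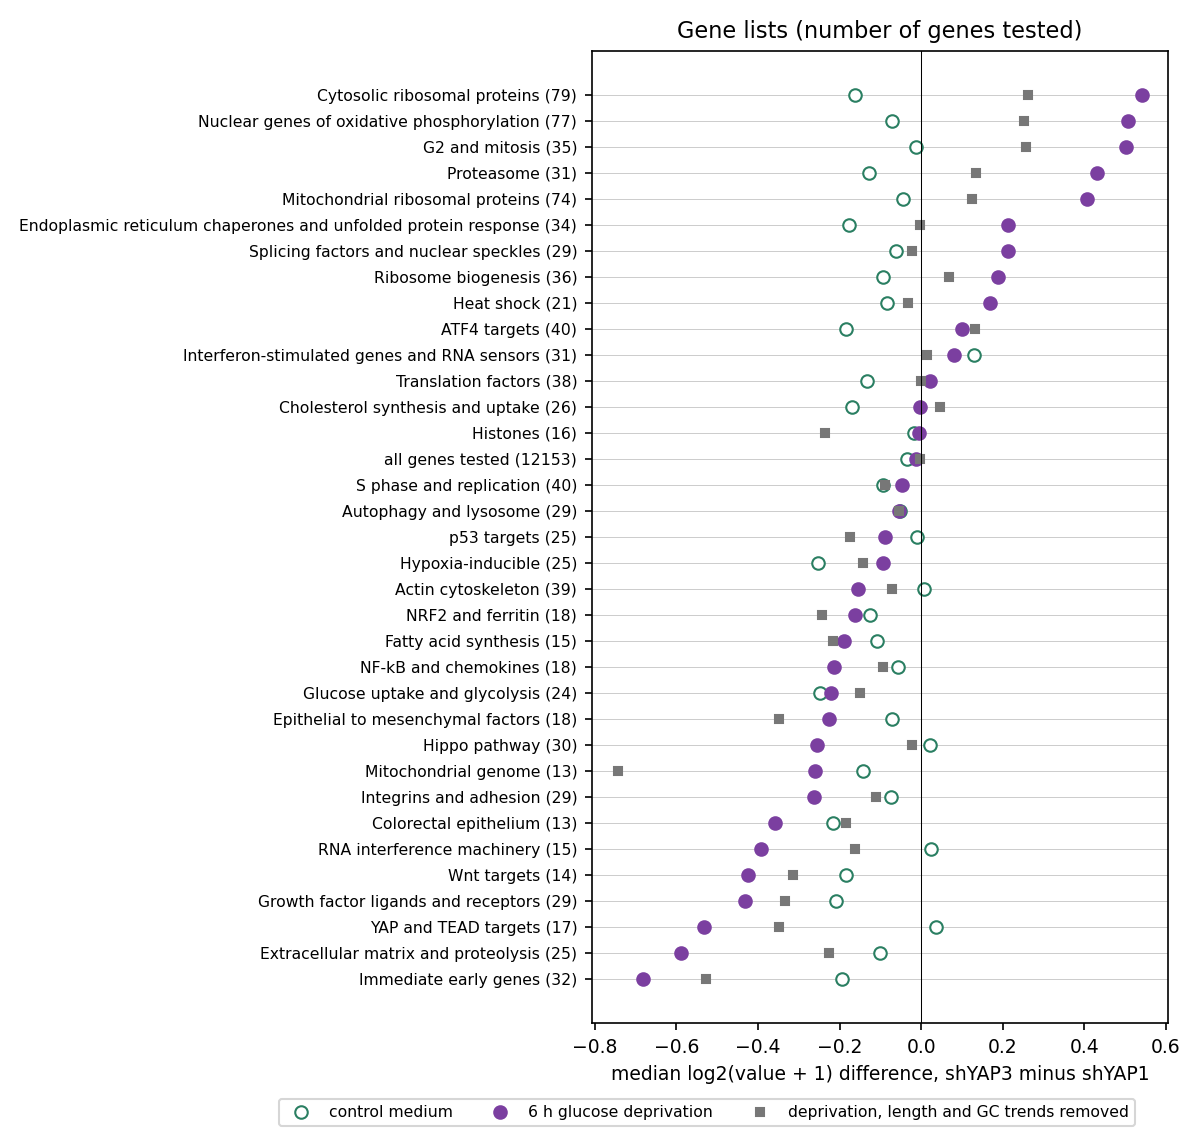
Median log2(value + 1) difference shYAP3 minus shYAP1 (x axis) of each gene list with at least 10 genes tested, in control medium (open), after deprivation (filled) and after deprivation with length and GC trends removed (squares). Immediate early genes stand lowest at −0.68 and cytosolic ribosomal proteins highest at 0.54 after deprivation, against −0.01 for all genes.

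Genes of G2 and mitosis had a median difference of −0.01 in control medium and 0.50 after deprivation (0.26 with trends removed). After deprivation 31 of 35 were above 0, against 48.8% of all genes. Over both media 6 were higher at an unadjusted p below 0.05 (against 2.52% of all genes) and 0 passed the adjusted threshold. CENPE, the kinesin of kinetochores, stood at 19.5 (NC), 38.8 (shYAP1) and 29.9 (shYAP3) in control medium, then at 33.7, 23.8 and 70.2 after deprivation. KIF20B, a kinesin of cytokinesis, stood at 40.4, 66.9 and 56.1, then at 50.8, 39.96 and 103. In both genes shYAP1 was above shYAP3 in control medium and below it after deprivation. ASPM, a spindle pole protein, stood at 69.7 and 34.9 in shYAP1 and 87.7 and 61.3 in shYAP3 cells, and so was higher in shYAP3 in each medium. The transcripts of CENPE and KIF20B have GC contents of 35.3% and 34.2%. The 40 S phase genes had medians of −0.09 and −0.05.

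Of the stress genes, DDIT3, which encodes the factor CHOP, had one of the widest contrasts between media. It stood at 5.41 (NC), 6.78 (shYAP1) and 4.77 (shYAP3) in control medium, then at 284, 212 and 565 after deprivation. The ratio of shYAP3 to shYAP1 was 0.704 in control medium (95% counting interval 0.546 to 0.904) and 2.67 after deprivation (2.57 to 2.78). ASNS, the asparagine synthetase that ATF4 induces, stood at 88.1 (shYAP1) and 81.9 (shYAP3) with glucose, then at 269 and 503, while TRIB3 stood at 31.1 and 33.6, then at 144 and 167. The 40 ATF4 targets had medians of −0.18 and 0.10, but after deprivation −0.05 after quantile normalization and −0.04 when scaled to listed reads. The 34 reticulum chaperone and unfolded protein response genes had medians of −0.18 and 0.21, the latter −0.00 with trends removed. No gene of either list passed. With trends removed GDF15 of the ATF4 targets and XBP1 of the reticulum list passed, both lower in shYAP3 cells.

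**Figure D5:**
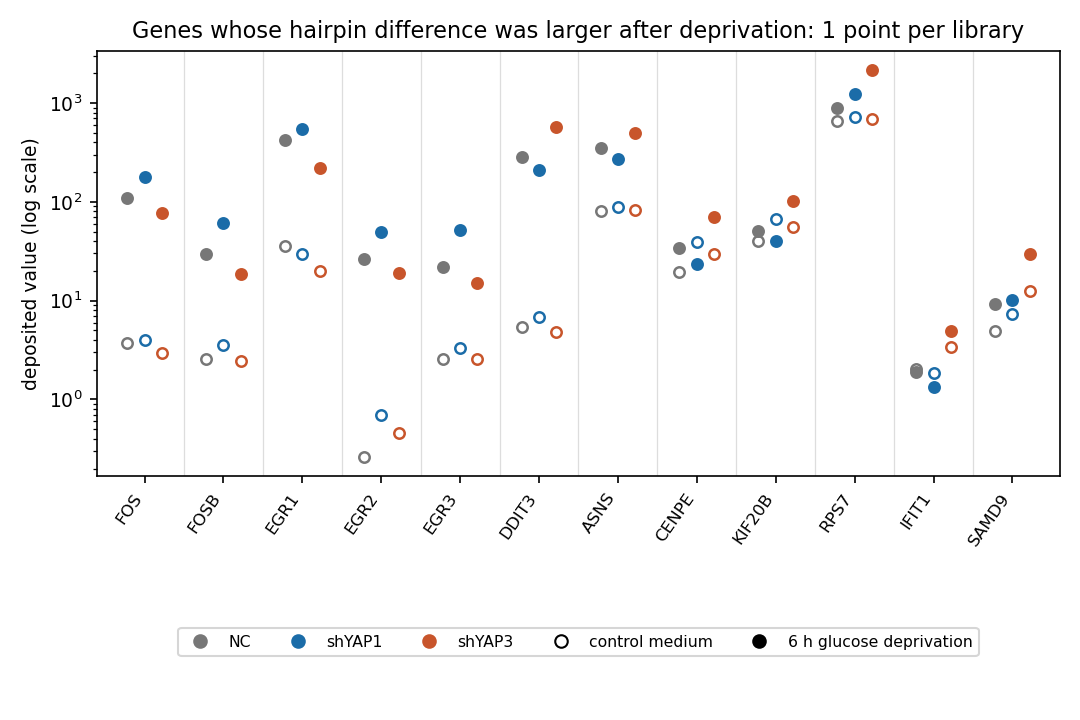
Deposited values (log axis) of 12 genes of stress, growth and interferon responses in each library, with NC in grey, shYAP1 in blue and shYAP3 in orange, and open points for control medium and filled points for deprivation. FOS, FOSB and the EGR genes are highest in shYAP1 cells after deprivation, as EGR1 at 545 against 222, while DDIT3 at 565 against 212 is highest in shYAP3 cells.

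Among genes that reached a value of 10 in any of the 4 libraries, by the difference between the within-medium differences, CENPE, DDIT3, SLX1B, KIF20B, KM-PA-2, ESF1, ADPRM, DYNC2LI1, SCRN3 and BLZF1 moved most toward shYAP3 after deprivation, and FOSB, EGR3, MIDN, VDR, FAM203B, SH3RF2, ZMIZ1, SOX13, MKL1 and C15orf39 most toward shYAP1. These values have no test. ESF1, a nucleolar protein, stood at 56.9 (shYAP1) and 42.8 (shYAP3) with glucose, then at 55.6 and 118. MIDN, a midnolin that carries nuclear proteins to the proteasome, stood at 40.9 and 43.7, then at 86.7 and 34.2. MKL1, a coactivator of the serum response factor, stood at 15.5 and 17.3, then at 15.9 and 6.93, and ZMIZ1, a coregulator of nuclear receptors, at 30.3 and 30.2, then at 28.2 and 11.2. The GC content was 35.4% for ESF1, 62.6% for MIDN, 61.3% for MKL1 and 57.7% for ZMIZ1. With length and GC trends removed the deprived difference was 0.49 instead of 1.07 for ESF1 and −0.93 instead of −1.32 for MIDN. For MKL1 it was −0.65 instead of −1.09, and for ZMIZ1 −0.74 instead of −1.27. FAM203B has a near-identical copy, FAM203A, and the sum of both differed by −0.12 and 0.19, against 0.43 and −0.87 for FAM203B alone. The sum of SLX1B and its copy SLX1A differed by −0.24 and −0.55, and so did not move toward shYAP3 after deprivation.

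Targets of YAP and TEAD went both ways in control medium, 9 above and 8 below 0, from −1.08 for IGFBP3 to 0.51 for AMOTL2, with a median difference of 0.04 over 17 genes. After deprivation their median was −0.53 (−0.35 with trends removed), 15 being below 0, against 6225 of the 12153 genes tested. None passed in either direction, and 4 were lower at an unadjusted p below 0.05 (against 3.10% of all genes). CYR61, a secreted matricellular protein, stood at 5.06 (NC), 4.87 (shYAP1) and 4.41 (shYAP3), then at 326, 160 and 102 after deprivation. CTGF, of the same family, stood at 0.968, 0.406 and 0.591, then at 60.5, 7.26 and 4.71. AMOTL2, which holds YAP at junctions, stood at 18.5, 16.2 and 23.6, then at 158, 72.2 and 44.7. In all 3 both hairpin lines were below NC after deprivation and shYAP3 the lower of them, and the limma adjusted p over both media was 0.92, 0.96 and 0.98.

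IGFBP3, which binds insulin-like growth factors, differed from these, with 2.33 (NC), 7.34 (shYAP1) and 2.95 (shYAP3), then at 1.12, 3.31 and 1.32 after deprivation, with shYAP1 alone high in each medium (log2 −0.99, limma adjusted p = 0.0505). F3, the tissue factor, stood at 17.7 and 33.6 in shYAP1 and 10.7 and 22.2 in shYAP3 cells, and NT5E, an ecto-nucleotidase, at 48.2 and 52.2 against 28.2 and 37.2. These 3 passed with trends removed. ANKRD1 was below the filter, at 0.0406 and 0.116 in shYAP1 and 0.136 and 0.901 in shYAP3 cells.

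The Hippo pathway itself, with 30 genes tested, had medians of 0.02 and −0.25, the latter −0.02 with trends removed, and no gene passed. WWTR1, which encodes the YAP paralog TAZ, stood at 52.0 (NC), 47.4 (shYAP1) and 40.6 (shYAP3), then at 74.4, 83.6 and 57.3 after deprivation. TEAD1 stood at 188 and 161 in shYAP1 and 160 and 102 in shYAP3 cells. TEAD2, TEAD3 and TEAD4 differed by −0.13 to 0.25 in either medium.

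Surface and matrix genes of epithelial cells had medians below 0 after deprivation, and of the lists given here RNF43 was the 1 gene past the threshold. With trends removed PLAUR, ITGA2, ITGB4, EGFR, IGFBP3, IGFBP6 and CA2 passed too as lower in shYAP3 cells. IGFBP2, of the growth factor list, then passed as higher (log2 0.84). Matrix and proteolysis genes (25 tested) had medians of −0.10 and −0.59, the latter −0.23 with trends removed. Of these genes, 8 were lower at an unadjusted p below 0.05 (against 3.10% of all genes). PLAUR, the urokinase receptor, stood at 27.3 (NC), 30.8 (shYAP1) and 19.6 (shYAP3), then at 48.8, 89.6 and 48.0, with shYAP1 alone high after deprivation, and LAMB3, a laminin chain, stood at 35.1 and 147 against 27.5 and 78.9. ITGB4, the integrin of hemidesmosomes, stood at 265, 280 and 185, then at 341, 413 and 162 (limma adjusted p = 0.094), with shYAP3 the lowest in each medium. EGFR stood at 151, 186 and 138, then at 174, 220 and 103, and IGF1R at 22.6 and 13.2 in shYAP1 and 18.2 and 5.48 in shYAP3 cells. Growth factor ligands and receptors (29 tested, medians −0.21 and −0.43), colorectal epithelium (13, −0.22 and −0.36), Wnt targets (14, −0.18 and −0.42, with RNF43) and integrins (29, −0.07 and −0.26) were likewise below 0 in both media. With trends removed the deprived medians of these 4 lists were −0.33, −0.18, −0.31 and −0.11. The control medium median of the growth factor list was −0.11 and that of the integrins 0.02 when scaled to listed reads.

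Genes of glucose use stood lower in shYAP3 cells in control medium, without passing. Glucose uptake and glycolysis genes had medians of −0.25 and −0.22 over 24 genes, and hypoxia-inducible genes −0.25 and −0.09 over 25, the control medium medians farthest below 0 of the lists with at least 10 genes tested. In control medium 23 of the 24 and 25 of the 25 were below 0, against 7111 of the 12153 genes tested. The control medium medians were −0.08 and −0.18 with quantile normalization, and −0.15 and −0.16 when scaled to listed reads. Over all genes that median was 0.00 with the former scaling and 0.06 with the latter. SLC2A3, a glucose transporter, stood at 40.6 (NC), 57.4 (shYAP1) and 33.3 (shYAP3), then at 156, 95.7 and 79.8 after deprivation, and SLC2A1 at 615 and 845 in shYAP1 against 517 and 639 in shYAP3 cells. FASN, the fatty acid synthase, stood at 1375 and 836 against 1166 and 434, and SCD, a desaturase, at 2803 and 1844 against 2100 and 1152. With trends removed their deprived differences were −0.28 (FASN) and −0.52 (SCD), instead of −0.94 and −0.68. The fatty acid list, which held 0.385% (shYAP1) and 0.247% (shYAP3) of the reads after deprivation, had medians of −0.11 and −0.19 over 15 genes, and the cholesterol list −0.17 and −0.00 over 26. After deprivation 5 of the 15 fatty acid genes were above 0. ELOVL6 was 1 of them, at 105.5 (shYAP1) and 102.2 (shYAP3) in control medium, then at 53.7 and 100.4.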

How the data were processed

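Polyadenylated RNA was sequenced from 4 hairpin and 2 NC libraries of HCT116. The authors deposited 1 normalized signal for each gene, by a scaling not given in the sources used here, and Bowtie2, BWA and hg19 are named in the submitters' processing notes. In each library 100% of values were whole multiples of 1 read (tolerance 0.05 read), so reads were recovered. The deposited symbols were used, and CYR61 and CTGF are older names of CCN1 and CCN2.

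Differences are shYAP3 minus shYAP1 on log2(value + 1), which understates changes of low genes. The test was limma 3.58.1 (R 4.3.3, trend) with construct and medium as terms in 4 libraries, which leaves 1 residual degree of freedom, so that the spread was pooled over genes of like level. P-values were adjusted by Benjamini-Hochberg over 12153 genes and called at 0.05. Within a medium there is no test. Alternatives were quantile normalization, scaling to listed reads, omitting the filter, a smaller pseudocount (0.1), omitting the trend, a threshold of 0.5 on the log2 difference, all 6 libraries with each left out in turn, edgeR 4.0.16 and DESeq2 1.42.0 on recovered reads, and removal of loess trends on length and GC content, which 98.78% of genes had (longest transcript, GENCODE v29, GRCh38, another build than hg19). A robust variance was added after seeing the data. The code was tested on simulated data.

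Members, lists and tests were chosen with earlier results of these data known. The rule for named genes took, first, up to 15 genes per direction past the test with the same sign in both media and a value of at least 5 in 2 hairpin libraries, or, where fewer than 5 passed, the 15 whose smaller within-medium difference was largest. It added the 10 per direction that depended most on the medium (value of at least 10 in 1 library), genes of the YAP and glucose question, and from every list its 4 genes of lowest p. A part of these is printed. NEDD9, POC1B-GALNT4, RPL17-C18orf32, the genes sharing reads and the pair past 2-fold in opposite directions were chosen after their values were seen. Promoters came from RefSeq (GRCh38.p14). The hairpin sequences were not used here.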

Additional observations from a re-analysis of the deposited data

Results flagged for a closer look

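DNAJC25-GNG10 and RP11-196G11.1 were the 2 genes that passed 2-fold in opposite directions in the 2 media, and these differences were not tested. DNAJC25-GNG10, a read-through transcript, had a log2 difference shYAP3 minus shYAP1 of 2.04 in control medium, from values of 8.77 against 1.38, and of −1.52 after deprivation, from 1.18 against 5.23. Summed with DNAJC25 and GNG10 the difference was −0.05 and 0.39. RP11-196G11.1, a transcript with a clone-based name, had −1.67 in control medium, from 0.273 against 3.04, and 1.58 after deprivation, from 5.13 against 1.045. These rest on 6 to 193 reads per library.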

How the results depend on the processing

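The count of 13 genes stayed within 1.5 times with quantile normalization (19), a pseudocount of 0.1 (14), no trend (18), edgeR (12, 11 of them shared) and a robust variance (13). It was 4 scaled to listed reads, 39 with no filter, 1 against a log2 threshold of 0.5, 1 with DESeq2 (212 at an unadjusted p below 0.05), 135 with length and GC trends removed, and 0 in limma with all 6 libraries (838 at an unadjusted p below 0.05). Leaving out 1 library of that 6-library fit gave 1 to 3823, with 51 without the shYAP3 deprived library and 3823 without the shYAP3 control library, and the lone library left in a medium is then assumed to vary like the others. SLX1B passed against the log2 threshold of 0.5 and with DESeq2, and not in limma with all 6 libraries. SUSD2 and RNF43 did not pass when scaled to listed reads, with edgeR or with DESeq2. The fitted difference of each of the 13 had the same sign in all 17 settings. A change of filter, trend, threshold or variance, or of the NC libraries in the fit, leaves that difference as it was. Its sign in those settings was therefore fixed. With a pseudocount of 0.1, the hairpin difference in control medium was past 2-fold for 62 genes (against 13), the hairpin difference after deprivation for 483 (against 212), and its medium dependence for 331 (against 152). With trends removed the last 2 counts were 96 and 60. In control medium the difference of RPS7 changed from −0.040 to 0.107 (quantile) and 0.055 (listed reads), and that of MT-ND1 from −0.072 to 0.068 and 0.024. The causes were not tested. Depth limits genes near the floor of 3 reads, and no spread between cultures can be had from these libraries.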

Other observations

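In the lists not described above no member passed in limma, and over all genes the medians were −0.03 in control medium and −0.01 after deprivation. Epithelial to mesenchymal factors (18 tested) had medians of −0.07 in control medium and −0.22 after deprivation. Of these factors, 4 were lower at an unadjusted p below 0.05 (against 3.10% of all genes). NF-kB genes and chemokines (18) had −0.06 and −0.21, NRF2 targets and ferritin (18) −0.13 and −0.16, the actin cytoskeleton (39) 0.01 and −0.15, p53 targets (25) −0.01 and −0.09, autophagy and lysosome genes (29) −0.05 and −0.06, and histones (16) −0.02 and −0.01. Stem cell and mucin markers (5) had −0.31 and −0.08. Above 0 after deprivation were splicing factors (29), at −0.06 and 0.21, ribosome biogenesis (36), at −0.09 and 0.19, heat shock genes (21), at −0.08 and 0.17, and translation factors (38), at −0.13 and 0.02. With quantile normalization the deprived median of heat shock genes was −0.04 and that of translation factors −0.15, and that of translation factors −0.12 when scaled to listed reads. With length and GC trends removed it was −0.02 for splicing factors and −0.03 for heat shock genes, 0.07 for ribosome biogenesis, −0.24 for histones, −0.17 for p53 targets and stem cell and mucin markers, and −0.35 for epithelial to mesenchymal factors. TAGLN, SOX9 and GDF15 passed then.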
